A study of Mus musculus with 47 samples.

Results

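Kainate receptors are glutamate-gated channels built from the subunits GluK1 to GluK5, which the genes Grik1, Grik2, Grik3, Grik4 and Grik5 encode. The subunits of Grik1, Grik2 and Grik3 can form channels on their own, whereas those of Grik4 and Grik5 bind kainate with high affinity and need a subunit of the other kind to form a working channel. Neto1 and Neto2 encode single-pass membrane proteins that join these receptors as auxiliary subunits and slow their gating. In the hippocampus kainate receptors are known above all from the mossy fibre synapse of dentate granule cells onto CA3 pyramidal cells, where they act on both sides of the synapse. The scaffold PSD-95 and the PDZ protein PICK1 are both known to bind kainate receptor subunits.

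These 7 genes were taken by symbol from the deposited table of 45706 genes, and all 7 were found once and passed the filter on low counts in both tissues. The table covers 47 mouse libraries of polyadenylated RNA in 6 groups. Prefrontal cortex (PFC) was sampled after saline, the PICK1 inhibitor (PICK1i) and the PSD-95 inhibitor (PSD-95i), with 8 libraries each. Hippocampus was sampled after the same treatments, with 7, 8 and 8 libraries.

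Per the protocol, all mice, saline controls included, had diet-induced obesity, were housed in pairs and received a daily injection for 5 days, the last one 2 h before they were killed. The compounds named there are mPD5 at 56 mg/kg and UCCB01-147 at 25 mg/kg, which were matched to PICK1i and PSD-95i from general knowledge of these compounds. That protocol describes dissection of the hypothalamus, with 6 mice given saline, whereas the labels of these libraries give PFC and hippocampus, and the saline groups hold 8 and 7 libraries. Strain, sex and age are not given in the labels. The 8 libraries of each inhibitor group equal the 8 mice per inhibitor of that protocol, but no label ties a library to a mouse, so the p-values rest on the spread among libraries, which may be technical. Whether PFC and hippocampus libraries come from the same mice cannot be told from the labels either, and the comparisons between regions treat them as independent. The inhibitors were each given at 1 dose, so a comparison between them is of these doses.

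Total counts per library ran from 5378175 to 13139410, and the share of mitochondrially encoded counts was 8.21 to 16.7% in PFC and 8.45 to 14.2% in hippocampus. Levels are CPM, the usual count relative to the size of the library, with TMM scaling. Dentate granule markers separated the labelled regions in all libraries but 2: their score, the mean log2 CPM of 9 genes, was 1.8 to 2.35 in PFC and 4.01 to 5.83 in the other 21 hippocampal libraries. The libraries labelled hippocampus PICK1i replicates 2 and 7 scored 2.29 and 2.2. In all, 6 libraries were high in markers of another region. Replicate 7 of hippocampus PICK1i had 1730 summed CPM of 6 thalamic markers, against a hippocampal median of 83.9. Striatal markers were high in hippocampus PICK1i replicate 2, hippocampus saline replicate 1 and PFC saline replicate 1, and olfactory bulb markers in PFC PICK1i replicate 6 and PFC PSD-95i replicate 6. Many results, though not all, are also given without these 6 libraries.

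Grik5 was by far the most abundant subunit in both regions and Grik1 the least. Per length of transcript, in CPM per kilobase, Grik5 stood at 90.4 ± 9.54 (SD, n = 8) in PFC and 100 ± 6.22 (SD, n = 7) in hippocampus after saline. Grik1 stood at 2.56 ± 0.654 and 3.14 ± 0.956 on the same scale. In PFC the order of the other levels per kilobase was Grik3 (13 ± 4.72), Grik2 (10.1 ± 1.35), Neto2 (9.16 ± 1.43), Grik4 (7.48 ± 0.651) and Neto1 (7.42 ± 1.3), and no neighbours among these 5 were further apart than the sum of their SDs. In hippocampus the order was Grik2 (18.1 ± 3.65), Grik4 (14.9 ± 2.37), Neto1 (12.7 ± 3.1), Grik3 (7.94 ± 1.44) and Neto2 (6.77 ± 2.48), where the step from Neto1 to Grik3 exceeded the sum of their SDs and the other steps did not. The length of Grik2 rests on 2 of its 8 listed transcripts, which hold 41.6% of its count, so its place in these orders is less certain.

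**Figure D1:**
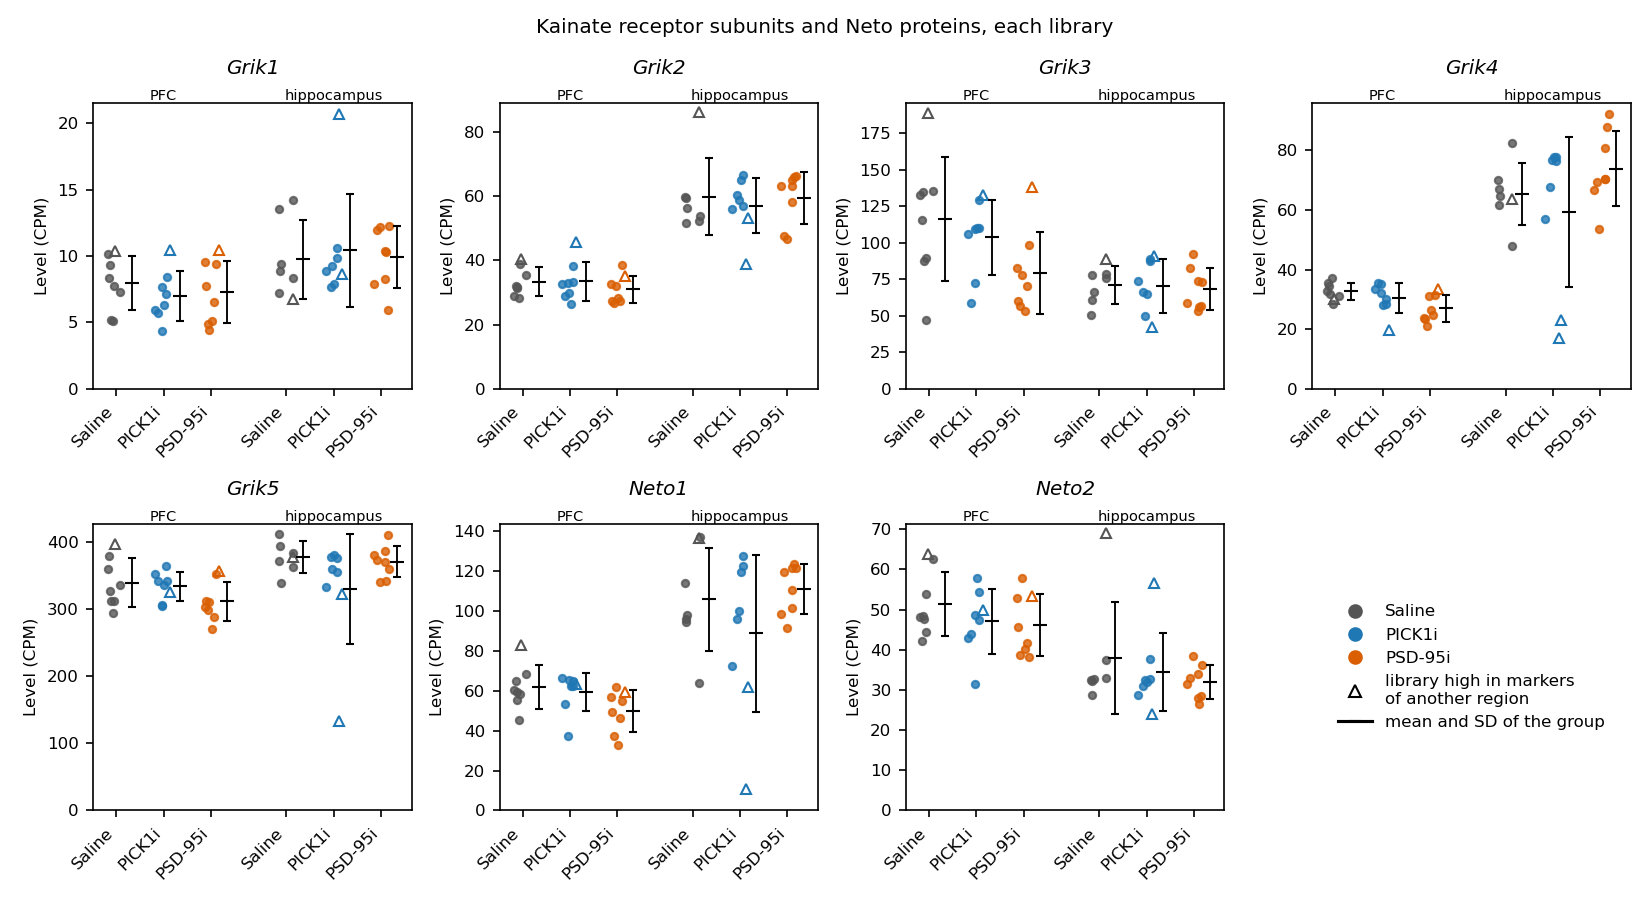
Level of each gene in every library, in CPM on a linear axis from 0, by region and treatment. Filled circles are libraries, open triangles the 6 libraries high in markers of another region, and the black bar beside each group its mean and SD. Grik2, Grik4 and Neto1 lie higher in hippocampus, Grik3 and Neto2 lower, and the treatments of a region overlap in every panel.

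After saline, 5 of the 7 genes differed between hippocampus and PFC. Grik2, Grik4 and Neto1 were higher in hippocampus, by 1.78, 1.99 and 1.7 times, and Grik3 and Neto2 were lower, at 0.609 and 0.735 times the PFC level. Differences between these regions were common: 38.3% of the 15658 genes tested were called (adjusted p under 0.05), 19.5% higher and 18.8% lower in hippocampus. The median log2 change of the 7 genes was 0.29, beside 0.01 over all genes. Fewer cells of a type and less RNA per cell cannot be told apart in such bulk tissue.

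Among the subunits that form channels on their own, Grik2, the subunit of most brain kainate receptors, had a lowest, median and highest level of 28.4, 31.8 and 40.5 CPM in PFC and of 51.5, 56.2 and 86 CPM in hippocampus after saline. All hippocampal libraries lay above all PFC libraries, a separation that was not counted over all genes. The log2 difference was 0.83 (SE 0.11, 95% interval 0.61 to 1.06, adjusted p = 3.55e-08, edgeR quasi-likelihood test). The highest value, 86 CPM, came from hippocampus saline replicate 1, one of the libraries high in striatal markers, and without the 6 libraries the log2 difference was 0.76 (adjusted p = 1.23e-09).

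Grik3, a subunit of low glutamate affinity, ran the other way and varied widely in PFC, where its coefficient of variation was 24.8 to 36.4% in the 3 treatment groups. Its levels after saline were 46.9, 124 and 188 CPM (lowest, median, highest) in PFC and 50.7, 75.8 and 88.8 CPM in hippocampus. The groups overlapped, since 1 PFC library, replicate 4, lay below all hippocampal libraries. The log2 difference was -0.71 (SE 0.21, 95% interval -1.14 to -0.29, adjusted p = 0.00573, edgeR), and -0.65 without the 6 libraries (adjusted p = 0.00745).

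Grik1, known from interneurons, was scarce, with 36 to 118 counts in a PFC library and 46 to 140 in a hippocampal one. After saline its levels were 5.1, 8.07 and 10.4 CPM in PFC and 6.75, 8.85 and 14.2 CPM in hippocampus. These overlapped, and the log2 difference of 0.29 (SE 0.21, 95% interval -0.13 to 0.72) was not called (adjusted p = 0.285, edgeR).

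Of the high-affinity subunits, Grik4 differed most between the regions. It measured 28.5, 32.2 and 37.1 CPM in PFC and 47.7, 64.6 and 82.4 CPM in hippocampus after saline, with no overlap. The log2 difference was 1 (SE 0.19, 95% interval 0.62 to 1.38, adjusted p = 3.25e-05, edgeR), and 0.98 without the 6 libraries (adjusted p = 4.94e-10).

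Grik5, the other high-affinity subunit, hardly differed. Its levels after saline were 295, 332 and 397 CPM in PFC and 339.5, 378 and 413 CPM in hippocampus, and the log2 difference of 0.15 (SE 0.1, 95% interval -0.06 to 0.36) was not called (adjusted p = 0.281, edgeR). Without the 6 libraries its difference was 0.17 and passed the test (adjusted p = 0.0168), so the call depends on them. Without hippocampus PICK1i replicate 7 alone it was 0.14 (adjusted p = 0.0488). That library is in neither saline group, but all 6 groups share an estimate of the spread in this fit.

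The auxiliary proteins went opposite ways. Neto1, which is also known as a partner of NMDA receptors, measured 45.6, 60.0 and 83 CPM in PFC and 64, 98.2 and 137 CPM in hippocampus after saline. The log2 difference was 0.77 (SE 0.22, 95% interval 0.32 to 1.22, adjusted p = 0.00546, edgeR), although 1 hippocampal library, replicate 6 at 64 CPM, lay within the PFC range. Neto2 measured 42.2, 48.3 and 63.8 CPM in PFC and 28.7, 32.8 and 69 CPM in hippocampus. Its log2 difference was -0.45 (SE 0.15, 95% interval -0.74 to -0.15, adjusted p = 0.0142, edgeR). The hippocampal value of 69 CPM, above every PFC library, belonged to saline replicate 1, and without the 6 libraries the difference was -0.61 (adjusted p = 6.36e-06).

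**Figure D2:**
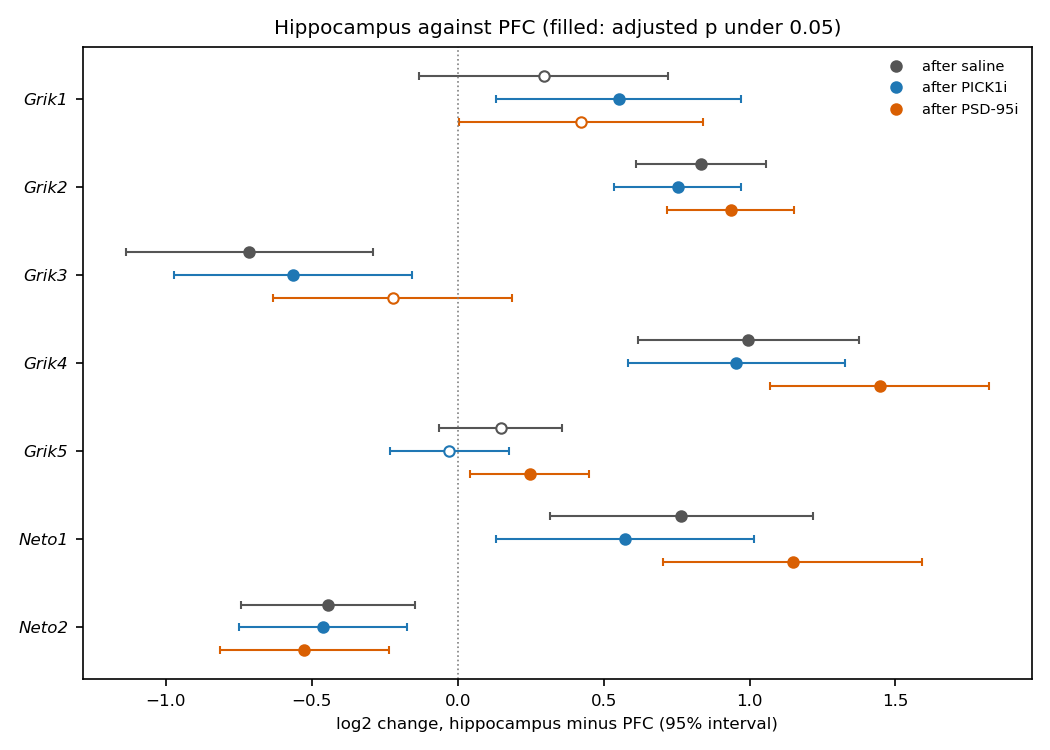
Difference between hippocampus and PFC for each gene (x axis, log2, hippocampus minus PFC) within each treatment, with 95% intervals. Filled points have an adjusted p under 0.05. Grik2, Grik4 and Neto1 lie above 0 and Neto2 below 0, all filled, within all 3 treatments, while Grik3 lies below 0 and is open after PSD-95i.

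The treated libraries are other samples in the same fit, and Grik2, Grik4, Neto1 and Neto2 differed in the same directions there. After PICK1i, 6 of the 7 genes were called, where 36.8% of all genes were (18.5% higher, 18.3% lower). The log2 differences were 0.75 for Grik2 (adjusted p = 1.98e-07), 0.95 for Grik4 (4.92e-05), 0.57 for Neto1 (0.0354), 0.55 for Grik1 (0.0339), -0.56 for Grik3 (0.0246) and -0.46 for Neto2 (0.00904, all edgeR). Grik5 stood at -0.03 (adjusted p = 0.851).

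This group holds the thalamic-marker library, hippocampus PICK1i replicate 7. Its Neto1 level was 10.8 CPM, where the lowest of the other 7 libraries of its group stood at 61.7 CPM, its Grik4 level was 17 CPM and its Grik5 level 133 CPM. Its Grik1 level, 20.7 CPM, was the highest of all 47 libraries. The library high in striatal markers, hippocampus PICK1i replicate 2, was also low in Grik4, at 23.2 CPM. The granule cell gene C1ql2 measured 5.04 CPM there, 16.7 CPM in replicate 7, and 61.2 to 200 CPM in the hippocampal libraries other than these 2. Of those, hippocampus saline replicate 2 had the lowest C1ql2 level, 61.2 CPM, but the highest Grik4 level of its group, 82.4 CPM. Hippocampus PICK1i replicate 2 also had the lowest CA3 and CA2 score (3.91) and the highest CA1 score (6.9) of the hippocampal libraries. Without the 6 libraries the Neto1 difference after PICK1i was 0.83 (adjusted p = 9.23e-06), that of Grik4 1.15 (8.65e-12) and that of Grik2 0.91 (1.02e-11). Grik1 was no longer called (0.46, adjusted p = 0.0516), and Grik3 stood at -0.49 (adjusted p = 0.0437). What part the composition of these libraries had in the levels was not tested.

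Single libraries decided calls after PICK1i. The call of Neto1 was lost on leaving out any of 7 libraries, namely PFC PICK1i replicates 1 and 5 and hippocampus PICK1i replicates 1, 3, 4, 5 and 6 (adjusted p 0.0526 to 0.1). The call of Grik1 was lost without PFC PICK1i replicate 1, 2, 5 or 7 or hippocampus PICK1i replicate 7, and without that last library its difference was 0.34 (adjusted p = 0.156). The call of Grik3 was lost without PFC PICK1i replicate 6 or 8 or hippocampus PICK1i replicate 1 or 7 (adjusted p 0.0506 to 0.0569).

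After PSD-95i, 5 of the 7 genes were called, where 45% of all genes were (23.1% higher, 21.9% lower). The log2 differences were 0.93 for Grik2 (adjusted p = 8.77e-10), 1.45 for Grik4 (1.49e-08), 1.15 for Neto1 (3.2e-05), 0.25 for Grik5 (0.0435) and -0.53 for Neto2 (0.00241, all edgeR). The hippocampal and PFC libraries did not overlap in Grik2, Grik4 or Neto1. Neto1, for example, measured 32.9 to 61.7 CPM in PFC and 91.3 to 123.5 CPM in hippocampus. How many of all genes separated the libraries in this way was not counted, here or after saline, so it is not a mark of these genes. Grik3 was not called (-0.22, 95% interval -0.63 to 0.19, adjusted p = 0.387, and -0.08 without the 6 libraries), nor was Grik1 (0.42, adjusted p = 0.0949). Grik1 was called without the 6 libraries (0.48, adjusted p = 0.0202) and on leaving out hippocampus PSD-95i replicate 8 alone (0.51, adjusted p = 0.0464). The call of Grik5 was lost on leaving out any of 28 of the 47 libraries (adjusted p 0.0512 to 0.0979), and without the 6 libraries it held (0.26, adjusted p = 9.73e-05). No hippocampal library of this treatment is among the 6.

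The regions also differed in the make-up of the subunit pool. Per length, Grik5 made up 73.3 ± 2.08% (SD, n = 8) of the summed level of the 5 subunits in PFC and 69.5 ± 2.6% (SD, n = 7) in hippocampus after saline. Grik2 held 8.24 ± 1.08% in PFC and 12.5 ± 2.14% in hippocampus, Grik4 held 6.15 ± 1.04% and 10.3 ± 1.38%, and Grik3 held 10.2 ± 2.8% and 5.5 ± 0.986%. The high-affinity subunits together had nearly the same share in both regions, 79.5 ± 2.93% and 79.8 ± 2.64%. Grik4 reached 8.37 ± 1.24% of the Grik5 level in PFC and 14.9 ± 2.18% in hippocampus. No p is given for these shares, which are sums over the chosen genes.

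The order of Neto1 and Neto2 differed between the regions. Their ratio per length was 0.69 to 1.03 in the PFC libraries after saline (mean 0.814 ± 0.108, SD, n = 8) and 1.31 to 2.46 in the hippocampal ones (1.96 ± 0.47, n = 7), with no overlap. After PSD-95i the ranges were 0.55 to 0.964 and 1.6 to 3.09. After PICK1i they were 0.723 to 1.04 and 0.303 to 2.52, and the overlap came from hippocampus PICK1i replicates 2 and 7, with ratios of 0.733 and 0.303. Without those libraries the lowest hippocampal ratio after PICK1i was 1.68.

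**Figure D3:**
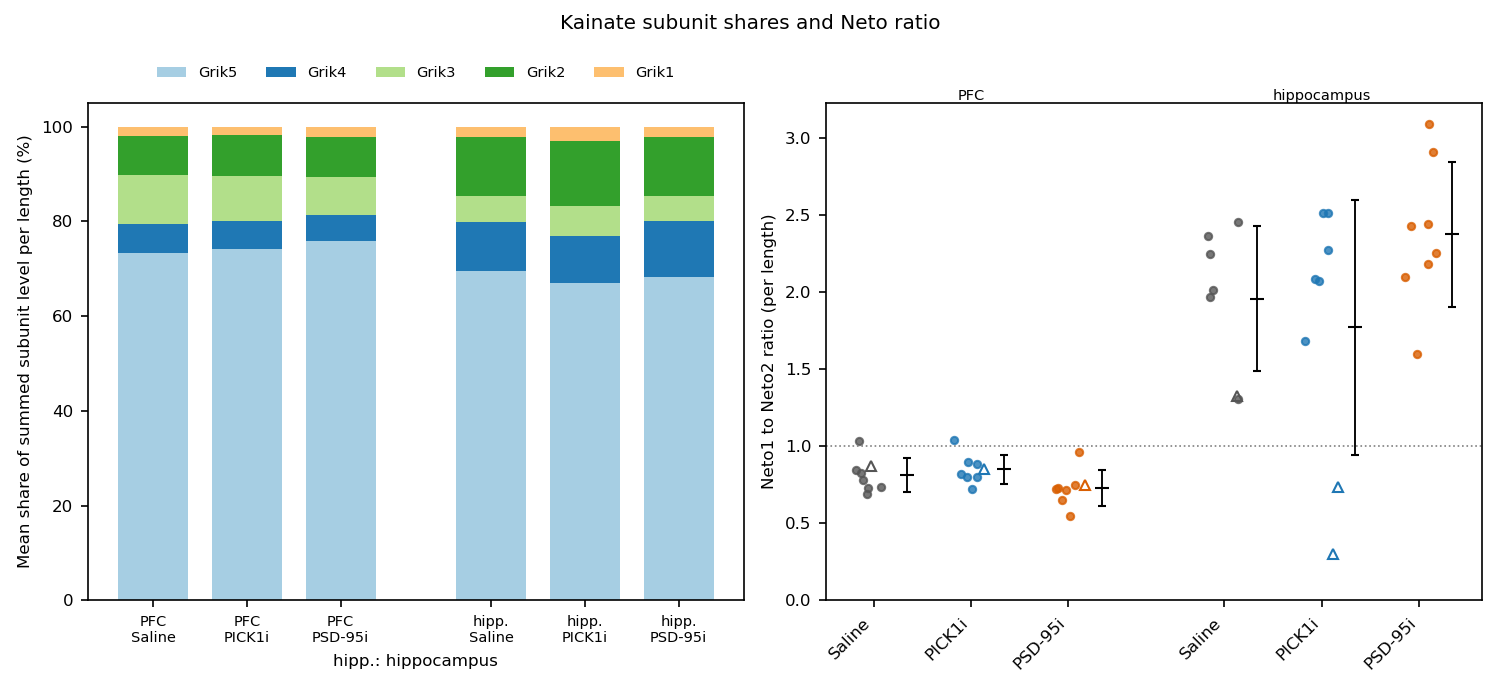
Left, mean share of each subunit in the summed level per length of the 5 subunits, in percent, by group. Right, Neto1 to Neto2 ratio per length in every library, with group mean and SD; triangles are the libraries high in markers of another region and the dotted line marks a ratio of 1. Grik5 holds the largest share of every bar (mean 66.9 to 75.8%), and the hippocampal ratios lie above 1 apart from 2 PICK1i libraries.

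Beside the other ionotropic receptors, the summed kainate subunit level was 123 ± 14.7 CPM per kilobase in PFC and 145 ± 8.34 in hippocampus after saline. The 4 AMPA receptor subunits summed to 275 ± 16.6 and 458 ± 49.9, and the 7 NMDA receptor subunits to 248 ± 13.8 and 244 ± 24.6 on the same scale (SD, n = 8 and 7).

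Neither inhibitor changed the level of any of the 7 genes past the threshold in PFC. For PICK1i against saline 0 of 7 were called, where 30 of the 14911 genes tested (0.201%) were. Under the alternative fits that count over all genes ran from 22, with only the compared groups, to 61, with 2 surrogate variables, and 0 of the 7 were called in each. The log2 changes ran from -0.18 for Grik1 (95% interval -0.57 to 0.22) to 0.01 for Grik2 (-0.19 to 0.22), with a median of -0.1 beside 0.01 over all genes, and none of the 7 had an unadjusted p under 0.05. That median was -0.04 without the 6 libraries, and 0.07, with 5 of the 7 changes positive, in a fit that also held 2 components of all the marker scores. Grik3 stood at -0.16 (95% interval -0.65 to 0.32).

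For PSD-95i against saline in PFC, all 7 log2 changes were negative and 0 of 7 were called, as were 0 of 14911 genes (0.0%). At an unadjusted p under 0.05 stood 4 of the 7, beside 946 of the 14911 genes (6.34%), and limma voom and DESeq2 likewise called 0 of the 7 (and 0 and 2 of all genes). The median log2 change was -0.17, beside 0 over all genes. Without the 6 libraries it was -0.15, again with all 7 changes negative.

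Grik3 had the largest change, from a lowest, median and highest level of 46.9, 124 and 188 CPM after saline to 53, 73.9 and 138 CPM after PSD-95i. Both highest levels came from libraries among the 6, saline replicate 1 and PSD-95i replicate 6. The groups overlapped over most of their range, and the log2 change was -0.56 (SE 0.24, 95% interval -1.05 to -0.07, unadjusted p = 0.028, adjusted p = 0.701, edgeR). Neto1 measured 45.6, 60.0 and 83 CPM after saline and 32.9, 52.2 and 61.7 CPM after PSD-95i, a log2 change of -0.32 (SE 0.13, 95% interval -0.58 to -0.06, adjusted p = 0.699). Grik4 measured 28.5, 32.2 and 37.1 CPM after saline and 21, 25.7 and 33.6 CPM after PSD-95i. Its log2 change was -0.28 (SE 0.1, 95% interval -0.48 to -0.08, unadjusted p = 0.009, adjusted p = 0.651), the smallest p of the 7. Without the 6 libraries it was -0.34 (unadjusted p = 0.00054, adjusted p = 0.344). The changes of the others were -0.13 for Grik5, -0.17 for Neto2, -0.14 for Grik1 and -0.11 for Grik2, with adjusted p from 0.786 to 0.981.

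**Figure D4:**
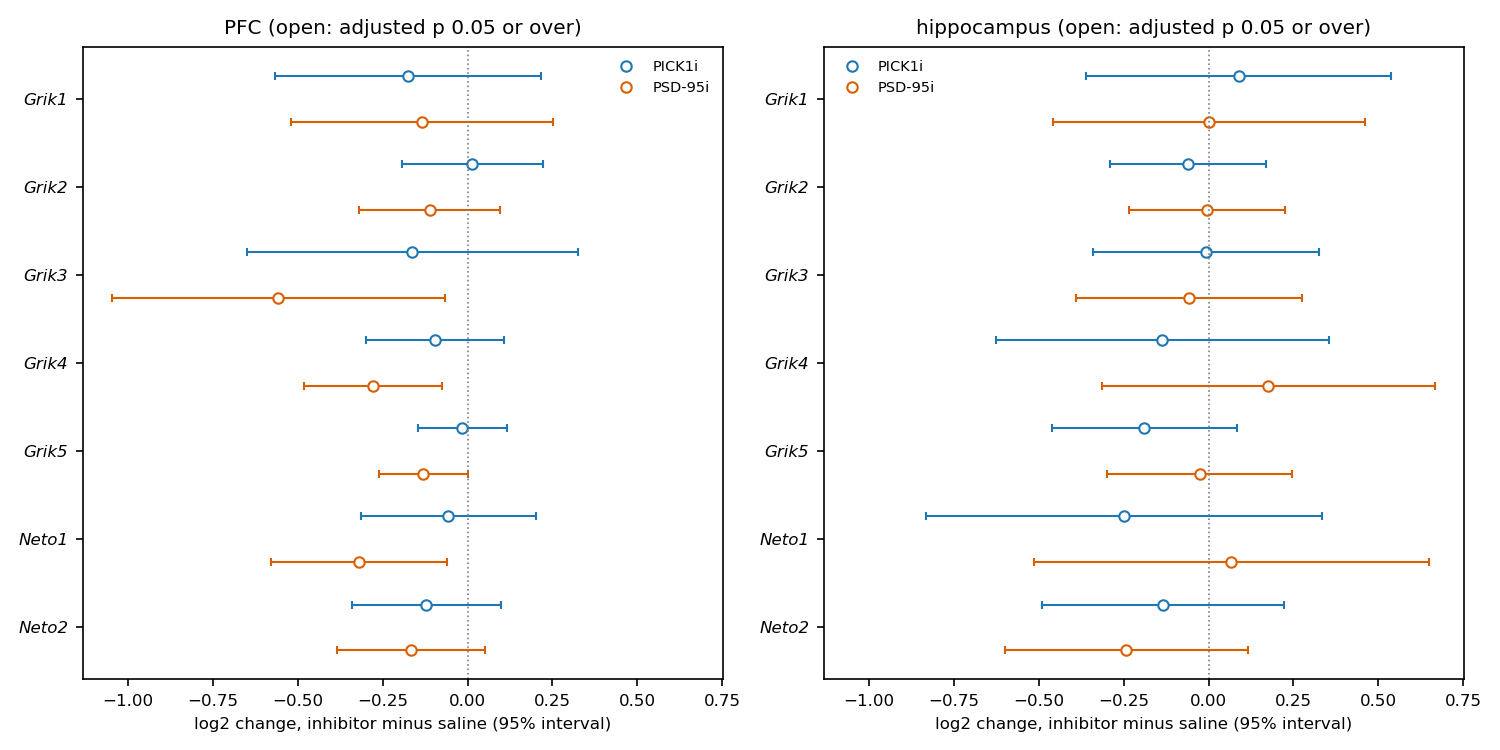
Change of each gene with each inhibitor against saline (x axis, log2, inhibitor minus saline) in PFC on the left and hippocampus on the right, with 95% intervals. All points are open because none had an adjusted p under 0.05. In PFC all 7 changes after PSD-95i lie below 0.

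Several marker lists moved with this comparison, among them those of cortical layers, oligodendrocytes, microglia and, by their score, striatal neurons. All 11 genes of the deep cortical layer list had a lower mean after PSD-95i than after saline, and their summed level was 113 to 354 CPM (median 172) after PSD-95i against 139 to 487 CPM (median 304) after saline. All 7 superficial layer genes had a higher mean after PSD-95i (summed 945 to 1550 CPM, against 715 to 1470), and all 11 oligodendrocyte genes a lower one (1660 to 2760 CPM, against 1900 to 3520). All 6 microglia genes had a lower mean as well (summed 255 to 295 CPM, median 274, against 267 to 352 CPM, median 300.0). None of the genes of these 4 lists was at 0 in any library of either group. All 8 striatal genes had a lower mean too. Their score was 3.07 after PSD-95i against 3.79 after saline, or 3.01 against 3.5 without the 6 libraries. Their summed level hardly differed, with a median of 216 CPM after PSD-95i against 218 CPM after saline. Without the 6 libraries it was 218 CPM against 212 CPM. In each group 1 of the striatal values was at 0. Of the 11 genes of the CA3 and CA2 pyramidal list, 8 had a lower and 3 a higher mean. Their median summed level was 524 CPM after PSD-95i against 671 CPM after saline. Of the 5 oligodendrocyte precursor genes, 4 had a lower and 1 a higher mean, and of the 7 astrocyte genes, 4 a lower and 3 a higher one. What part these markers had in the changes was not tested. The markers themselves differed between the treatments, so a fit that holds their scores cannot tell markers and treatment apart. In the fit with the 2 marker components, the change of Grik3 was 0.06 and that of Neto1 -0.03, while that of Grik4 was -0.18. That fit turned 4 of the 7 changes positive.

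The level of Grik3 ran with the deep layer markers within the groups as well. The correlation of its log2 CPM with the deep layer score, both as deviations from the group mean, was 0.897 over the 24 PFC libraries and 0.895 over the 23 hippocampal libraries, and 0.851 and 0.872 without the 6 libraries. These are descriptions, since libraries share dissection and depth. The summed level of this list after saline was higher in hippocampus (median 608 CPM) than in PFC (median 304 CPM). In hippocampus the score therefore cannot be read as one of cortical layers. The PFC saline library with the lowest Grik3 level, replicate 4, had the lowest deep layer score of its group, 3.17, and the one with the highest, replicate 1, had the highest, 5.06. Other scores were at their extremes in these libraries too. Replicate 4 had the lowest striatal score (2.86) and the highest superficial layer score (7.07) of the group. Replicate 1 had the highest striatal score (5.79) and the lowest superficial layer score (6.18). Grik4 did not run with the deep layer score in PFC (r = 0.08).

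**Figure D5:**
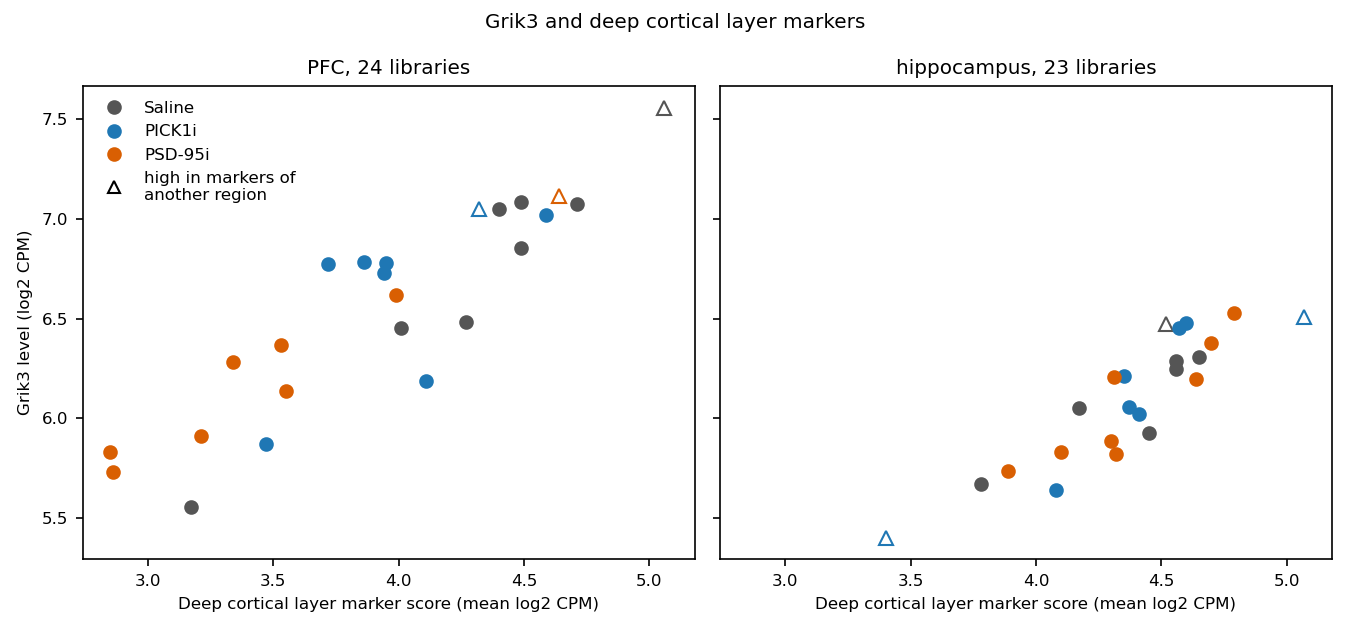
Grik3 level (y axis, log2 CPM) against the deep cortical layer marker score (x axis, mean log2 CPM of 11 genes) in each library of PFC (left) and hippocampus (right), coloured by treatment. Triangles are the libraries high in markers of another region. Grik3 rises with the score in both regions, and most PSD-95i libraries of PFC lie at its lower end.

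Between the inhibitors in PFC, 0 of 7 genes were called, where 50 of 14911 (0.335%) were. That count over all genes ranged from 24 in the fit with marker components to 125 without the 6 libraries, with 99 by DESeq2, and 0 of the 7 were called in each. The log2 change, PSD-95i minus PICK1i, was lowest for Grik3 (-0.39, 95% interval -0.89 to 0.1, adjusted p = 0.641) and Neto1 (-0.26, -0.52 to 0, unadjusted p = 0.0491, adjusted p = 0.519).

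In hippocampus 0 of 7 genes were called for either inhibitor or between them, and neither was any of the 15051 genes tested (0.0%), by edgeR, DESeq2 or limma voom. At an unadjusted p under 0.05 stood 0 of the 7 genes in each of the 3 comparisons, beside 580, 231 and 734 of all genes (edgeR). For PICK1i against saline, 6 of the 7 changes were negative (median -0.14), whereas without the 6 libraries 3 were negative and 4 positive (median 0.07). Neto1 measured 64, 98.2 and 137 CPM after saline and 10.8, 98.1 and 128 CPM after PICK1i. Its log2 change was -0.25 (95% interval -0.83 to 0.33, adjusted p = 0.956) and, without the 6 libraries, 0.07. Grik5 stood at -0.19 (95% interval -0.46 to 0.08) and, without them, at -0.06. Grik1 turned from 0.09 to -0.2. Leaving out replicate 7 alone already turned Grik1 to -0.13.

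For PSD-95i against saline the hippocampal changes ran from -0.24 for Neto2 (95% interval -0.6 to 0.11) to 0.18 for Grik4 (-0.31 to 0.67). Without the 6 libraries, among them saline replicate 1 at 69 CPM, Neto2 stood at -0.04. Between the inhibitors the largest values were 0.32 for Neto1 (95% interval -0.25 to 0.88) and 0.31 for Grik4 (-0.16 to 0.79), and without the 6 libraries they were 0.06 and 0.03.

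Whether a drug effect differed between the regions was tested directly. For PICK1i 0 of 7 genes were called, where 1 of 15658 genes (0.00639%) was (9 without the 6 libraries and 9 by limma voom). For PSD-95i 0 of 7 were called, where 0 of 15658 (0.0%) were (1 without the 6 libraries and 0 by limma voom). No member had an unadjusted p under 0.05 by edgeR over all libraries, and DESeq2 and limma voom also called 0 of 7. The differences nearest to the threshold were those of the PSD-95i effect on Grik4 (0.45, 95% interval -0.08 to 0.98, unadjusted p = 0.0945) and on Grik3 (0.49, -0.09 to 1.08, unadjusted p = 0.0983), both with an adjusted p of 1 by edgeR. Without the 6 libraries they were 0.50 (unadjusted p = 0.00185) and 0.57 (unadjusted p = 0.0425), again with an adjusted p of 1.

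Positions are those of GENCODE M21 on GRCm38. Grik1 lies on the minus strand at chr16:87895900-88290265, Grik2 on the minus strand at chr10:49094833-49788766 and Grik3 on the plus strand at chr4:125490700-125714173. Grik4 lies on the minus strand at chr9:42518135-42944493 and Grik5 on the minus strand at chr7:25009849-25072346. Neto1 lies on the plus strand at chr18:86394952-86506718 and Neto2 on the minus strand at chr8:85636588-85700924. An exon of Grik4 overlaps the small gene Gm24420 on its own strand, and exons of Neto1 and Neto2 overlap AC113599.1 and Mir8109 on the other strand. The labels name a stranded kit but not the strand setting of the counting, so reads of such overlaps may be shared.

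The estimated counts per transcript hold 17 transcripts of these genes, of which 15 passed the filter over all libraries. Between hippocampus and PFC after saline 11 of the 15 were called, where 24.9% of the 39163 transcripts tested were. The 11 are not separate from the gene results. Transcripts of the same gene share its reads, and Grik3, Neto1 and Neto2 have 1 transcript each. Both Grik4 transcripts were higher in hippocampus, by 1.06 (log2, adjusted p = 2.51e-05) for ENSMUST00000034515, of 3413 bases and 19 exons, and by 0.9 (adjusted p = 0.000297) for ENSMUST00000114865, of 5887 bases and 21 exons. The former held 60.1 ± 3.39% of the gene's count in PFC and 62.7 ± 1.91% in hippocampus (SD), a difference within the sum of their SDs.

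Grik2 had 8 listed transcripts. All 7 tested had a higher mean CPM in hippocampus than in PFC after saline, and 6 of them were called. The 3 that held the most were ENSMUST00000105487, with 25.7 ± 1.16% of the count in PFC and 24 ± 2.08% in hippocampus, ENSMUST00000105484, with 21.4 ± 2.43% and 19.9 ± 1.58%, and ENSMUST00000079751, with 21.3 ± 2.1% and 20.9 ± 2.36%. ENSMUST00000147808 held 17.5 ± 2.19% and 19.7 ± 1.71%, and ENSMUST00000105483 held 8.06 ± 2.54% and 9.36 ± 1.42%. Their log2 differences ran from 0.71 to 1.06. Grik1 was mostly ENSMUST00000114137 (70.1 ± 3.47% in PFC, 72.4 ± 4.8% in hippocampus), followed by ENSMUST00000023652 (21.9 ± 3.83% and 20.6 ± 3.97%), and neither was called. ENSMUST00000072256, with 8 ± 3.61% and 6.99 ± 2.06%, had too few counts to be tested. The other 4 genes have 1 transcript each in the table.

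No transcript of the 7 genes was called for an inhibitor. In PFC 0 of 14 were called for PICK1i, where 0.083% of 36128 transcripts were, and 0 of 14 for PSD-95i, where 0.0% were (edgeR). In hippocampus 0 of 15 were called for either inhibitor, where 0.0% of 36123 transcripts were. At an unadjusted p under 0.05 stood 4 transcripts for PSD-95i in PFC, those of Neto1 and Grik3 and both of Grik4, and 1 for PICK1i in hippocampus, ENSMUST00000105486 of Grik2 (log2 change -0.58, adjusted p = 0.988). Of all transcripts 5.58% and 3.57% had such a p in these comparisons. These transcripts were named after their values were seen.

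Among 26 genes listed as partners of kainate receptors, which include scaffolds, trafficking proteins, kinases, presynaptic organisers and RNA editing enzymes, 7 were higher and 6 lower in hippocampus after saline, and 13 were not called. The 13 called of 26 stand beside 38.3% of all genes. The largest difference was that of C1ql2, a secreted organiser that clusters kainate receptors at mossy fibre synapses and is itself a granule cell marker, at 0.682 ± 0.287 CPM in PFC and 137 ± 42.7 CPM in hippocampus (log2 difference 7.63, adjusted p = 6.4e-15, edgeR). Nsf, a vesicle fusion ATPase, was higher by 0.4 (adjusted p = 0.000282). Snap25, a vesicle fusion protein known to bind GluK5, was lower, with a log2 difference of -0.85 (adjusted p = 1.83e-12), as were the scaffolds Dlg1 (-0.72, adjusted p = 3.37e-10) and Grip2 (-1.25, adjusted p = 1.19e-05). After PICK1i 5 were higher and 7 lower, 12 of 26 beside 36.8% of all genes, and after PSD-95i 8 were higher and 8 lower, 16 of 26 beside 45% of all genes. The median log2 difference of the 26 was 0.01, 0.03 and 0.03 in the 3 treatments, beside 0.01 over all genes in each.

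Of the genes of the inhibitors' targets, neither was called between the regions after saline. Dlg4, which encodes PSD-95, had a log2 difference of 0.02 (adjusted p = 0.842) and Pick1 one of -0.16 (adjusted p = 0.0881). After PSD-95i, Pick1 was lower in hippocampus (-0.23, SE 0.07, adjusted p = 0.00837, edgeR), and Dlg4 stood at 0.04 (adjusted p = 0.722). The mean level of Pick1 was lower in hippocampus in all 3 treatments. In PFC and hippocampus it was 49 and 44 CPM after saline, 51.1 and 45.6 CPM after PICK1i, and 50.4 and 43.3 CPM after PSD-95i. For the inhibitors against saline, 0 of 25 partners tested in PFC and 0 of 26 in hippocampus were called in any of the 4 comparisons, 0 also at an unadjusted p under 0.05, and the medians of their log2 changes lay between -0.06 and 0.

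The 7 genes did not vary as one unit. Over the 24 PFC libraries, the correlations between pairs of them, as deviations of log2 CPM from the group mean, ran from -0.23 to 0.771 with a median of 0.461, and 5 of the 21 pairs were negative. Grik4 stood apart in PFC, with r from -0.23 to 0.21. Grik3 and Neto1 were the closest pair there (0.771, and 0.722 without the 6 libraries).

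Over the 23 hippocampal libraries the closest pair was Grik5 and Neto1, at 0.928, but without the 6 libraries it was 0.438. That of Grik4 and Neto1 was 0.873 both with all libraries and without the 6. In the 20 remaining hippocampal libraries both ran against the thalamic score (-0.647 for Grik4, -0.7 for Neto1) and the oligodendrocyte score (-0.634 and -0.66). All these libraries share dissection and depth, so the values are descriptions.

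Of 13010 genes compared, those most like each member in both regions, by the smaller of the 2 correlations within groups, were Ap2a2 (0.908 in PFC, 0.922 in hippocampus), Dyrk2 and Map2 for Neto1 and Neurl1b (0.898 and 0.918), Ptpre and Hpcal4 for Grik5. For Neto2 they were Osbpl8 (0.801 and 0.823), Rps6ka5 and Sesn3, and for Grik1 Dner (0.802 and 0.802), Cbln1 and Dpysl3. For Grik3 they were Rab3b (0.784 and 0.772), Cntnap3 and Gnb4, for Grik4 Lmo4 (0.773 and 0.859), Cpt1c and Slc8a2, and for Grik2 Ralgps2 (0.823 and 0.727), Actn2 and Lppr4. Without the 6 libraries the leading gene was again Ap2a2 for Neto1 (0.895 and 0.917), Cpt1c was again among the leading genes of Grik4 (0.643 and 0.661), and all other leading genes changed.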

How the data were processed

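RNA was extracted with RNeasy kits, made into TruSeq Stranded mRNA libraries and sequenced as 52-bp pairs, per the labels' protocols. The submitters' processing notes name build GRCm38, bcl2fastq 2.20.0 and, with no version, STAR and Salmon. What the authors deposited are estimated counts per gene and per transcript, not scaled between libraries by the authors. All 47 columns were used. Counts were rounded and tested with edgeR 4.0.16 (quasi-likelihood, robust, two-sided, TMM, filterByExpr with a minimum count of 10 and total of 15) over all genes, with Benjamini-Hochberg adjustment and a threshold of 0.05. Each tissue was fitted apart for the inhibitors, and all 6 groups together for regions and for differences of effect. Levels are CPM (for log2 values, after adding a prior count of 2), and levels per length divide by the count-weighted transcript length of GENCODE M21.

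The members, lists and tests were chosen with earlier results of these data known. All 7 members were named in every comparison. Of the 26 partners, called ones could be named, and after saline the 3 with the smallest p in each direction, of which 1 is not reported here; Dlg4 and Pick1 were added as the inhibitors' targets. Transcripts with at least 5% of a gene's count and the 3 most alike genes per member were named. A library was set apart where a striatal, thalamic or olfactory bulb score lay over 2 (log2) above its tissue's median, a rule chosen after seeing the data. The fitting code was first tested on simulated counts in which 200 genes were changed. Alternatives were RLE scaling, 2 other filters, DESeq2 1.42.0, limma 3.58.1 voom with quality weights, 2 surrogate variables (sva 3.50.0), 2 marker components, only the groups compared, a replicate block, summed transcript counts, the longest transcript as length, and leaving out libraries. R 4.3.3 ran the fits, and Python 3.11.15 and matplotlib 3.10.9 the tables and plots.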

Additional observations from a re-analysis of the deposited data

Results flagged for a closer look

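Of 66 groups of values checked, 9 had a library far from the others of its group, by Dixon's gap test at 95%; chance gives about 1 in 20. The thalamic-marker library, hippocampus PICK1i replicate 7, gave 4 of them: Grik1 at 20.7 CPM (high), Grik5 at 133 CPM (low), a Grik5 share of 56.7% (low) and a summed subunit level of 62.5 CPM per kilobase (low). Hippocampus saline replicate 1, high in striatal markers, was high in Grik2 (86 CPM) and in Neto2 (69 CPM), and hippocampus PICK1i replicate 2, also high in striatal markers, was high in Neto2 (56.5 CPM). PFC PICK1i replicate 6, high in olfactory bulb markers, was low in Grik4 (19.9 CPM). The remaining one, PFC PICK1i replicate 1, was low in Neto1 (37.4 CPM) and is not among the 6 libraries high in markers of another region; its share of mitochondrially encoded counts was 16.7%, the highest of all libraries. What these features had to do with the values was not tested. No difference of an inhibitor's effect between regions passed the test for any of the 7 genes.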

How the results depend on the processing

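For the inhibitors, 0 of the 7 genes and 0 of their transcripts were called under every alternative run and without any single library. After saline 5 to 6 genes were called between regions, and 5 to 6 without any single library. After PICK1i it was 3 to 6, the 3 under no filter beyond 1 count, and 4 to 6 without a single library; after PSD-95i 4 to 6 and 4 to 5. Grik2, Grik4 and Neto2 were called within all 3 treatments under every alternative.

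Uncalled values changed sign. With the 2 marker components, PSD-95i against saline in PFC gave 0.253 for Grik1, 0.0754 for Grik2, 0.0559 for Grik3 and 0.0566 for Grik5, and PICK1i gave 0.00884 for Grik1 and 0.133 for Grik3. With 2 surrogate variables, PSD-95i gave 0.192 for Grik1 and 0.0889 for Grik2. For PICK1i in PFC, Grik2 was -0.0544 with voom, -0.0258 without the 6 libraries, and -0.0705 to 0.0611 without single libraries. In hippocampus, PICK1i gave -0.1399 for Grik1 with voom, -0.268 with surrogate variables, -0.141 with marker components and -0.1996 without the 6 libraries (-0.131 to 0.207 without single ones), and 0.0697 for Neto1 without the 6. Grik5 between regions after PICK1i was 0.0739 with voom, 0.0569 with marker components, 0.0952 without the 6 and -0.0703 to 0.0861 without single libraries. The cause was not tested.

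With the longest transcript as length, after saline in PFC and hippocampus, the share was 75.8% and 73.3% for Grik5 and 4.72% and 8.07% for Grik4, and 7.04% for Grik2 in PFC, by construction of longer lengths.

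Replicate numbers are shared between groups. Over all pairs of same-numbered libraries the mean r was -0.0114 to 0.0419 by number, and single pairs ran from -0.33 to 0.429. Most of these pairs join different treatments. The means therefore cannot tell whether PFC and hippocampus libraries of the same number and treatment share a mouse. A replicate block ended the call of Neto1 after PICK1i (0.51, adjusted p = 0.0739) and no other call of the 7 genes. Over all genes it took the calls for PSD-95i against PICK1i in PFC from 50 to 80.

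At 36 to 140 counts a library, Grik1 is the least precisely measured of the 7 in counting terms. The precision of differences is limited by the 7 to 8 libraries per group.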
